A study of Rattus norvegicus with 47 samples.

Results

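Of 8 genes named for p53 signalling and the braking of the cell cycle, 7 were measured by the 11 probe sets that the probe-to-gene table assigns to their symbols, out of 31042 probe sets and 14217 genes in all. They are the p53 targets Mdm2, Ccng1, Gdf15 and Cdkn1a and the other cyclin-dependent kinase (CDK) inhibitors Cdkn1b, Cdkn2a and Cdkn2b. The eighth gene, Btg2, has no row in the table used here and was not analysed. Mdm2 has 3 probe sets, Cdkn1a and Cdkn1b have 2 each, and the other genes have 1. The brightest probe set of a gene in frozen or in fixed tissue is called its main one there and carries the count of genes, and the rest are given beside it. For Mdm2 the main probe set is 1383288_at in frozen and 1384427_at in fixed tissue.

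The liver of male Wistar rats (Han-Wistar in the growth protocol) was profiled on Affymetrix rat expression arrays to compare stages of liver tumours with the liver around them. Each rat was 4 weeks old when it received 1 dose of the nitrosamine N-nitrosomorpholine, a liver carcinogen, at 250 mg/kg. After a recovery of 3 weeks phenobarbital, a tumour promoter, was given in the drinking water at a daily 50 mg/kg until at most 17 months had passed. The surrounding liver carries the same carcinogen and promoter exposure as the lesions, so the comparisons are between lesion and exposed liver, not between lesion and untreated liver.

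The frozen groups were surrounding liver (7 arrays from 5 animals), nodules (5 arrays, 3 animals, which their source names call minitumor), adenomas (6 arrays, 2 animals), carcinomas (4 arrays, 3 animals) and carcinomas labelled with a beta-catenin mutation (4 arrays, 3 animals). The groups from formalin-fixed, paraffin-embedded (FFPE) tissue, cut out by laser microdissection, were surrounding liver (4 arrays, 4 animals), foci (9 arrays, 3 animals) and adenomas (5 arrays, 3 animals). Lesions of 1 animal share a host, and the labels do not say whether they share a clone. The source name of beta-catenin carcinoma replicate 1 lacks the mutation, that of FFPE adenoma replicate 4 reads surrounding tissue, and the source-animal field of animal 21 disagrees with the titles, so these arrays were kept under their group label and title. The 3 arrays named C43 normal entered no comparison. Hepatocyte markers had a mean level of at least 13.0 (log2) in every grouped array, where array medians lay between 5.49 and 5.68. Levels are deposited log2 values, and a change of 1 is a doubling.

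p53 is a transcription factor that DNA damage and other stress stabilise, and its targets arrest the cell cycle or kill the cell. Mdm2, itself a target, is the ubiquitin ligase that returns p53 to a low level. The proteins of Cdkn1a (p21) and Cdkn1b (p27) bind cyclin-CDK complexes, whereas those of Cdkn2a and Cdkn2b (p16 and p15, of the INK4 family) block CDK4 and CDK6 and so keep the retinoblastoma protein active. A transcript of Cdkn2a with another first exon codes for ARF, which inhibits Mdm2. The locus of both INK4 genes is mostly silent in young tissue, is switched on in senescent cells and is often lost in tumours.

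Cdkn2a and Cdkn2b were higher in both kinds of carcinoma than in surrounding liver. No other member gene passed the test through its main probe set in any of the 6 comparisons of lesions with surrounding liver. Mdm2 and Cdkn1b passed in some frozen comparisons through other probe sets, and these calls were lost when the control sets of the labels were used as a block. In frozen surrounding liver Cdkn1a and Ccng1 were highest in both arrays of animal 23, as was the main probe set of Cdkn1b by a small margin.

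**Figure D1:**
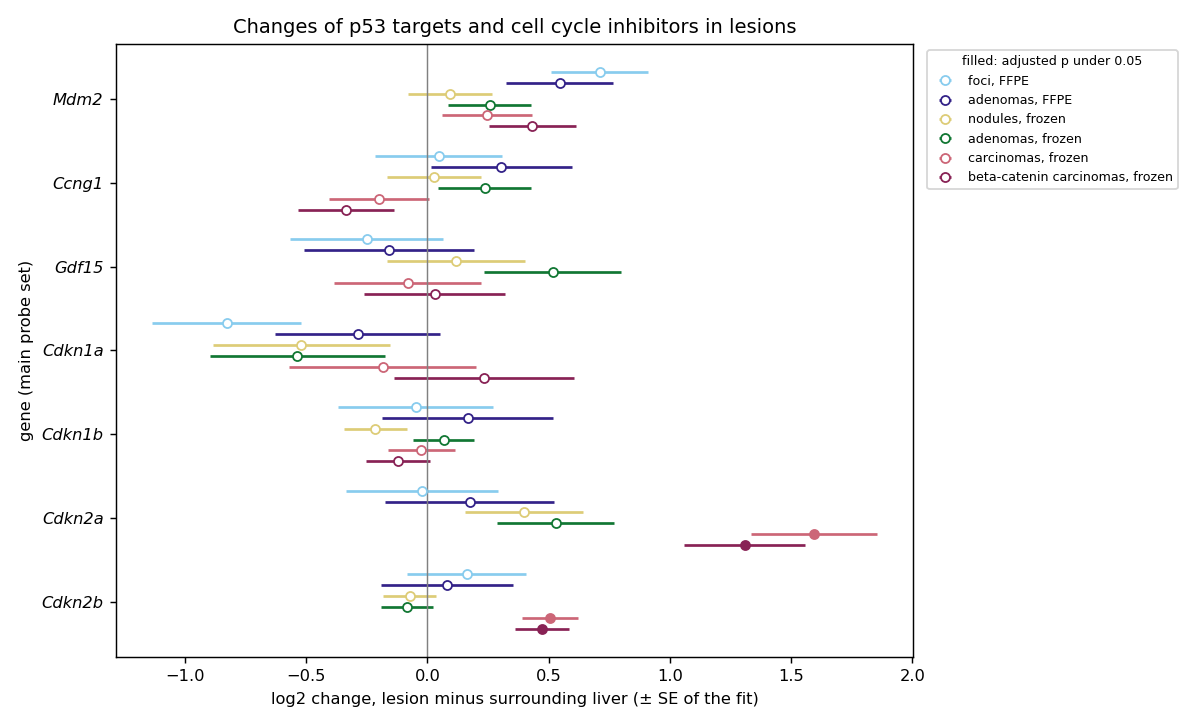
Log2 change of each member gene (main probe set) in 6 lesion groups against surrounding liver of the same fixation, with bars of 1 standard error of the limma fit and filled points for an adjusted p under 0.05. Only Cdkn2a and Cdkn2b in the carcinomas (1.59 and 0.51) and in the beta-catenin carcinomas (1.31 and 0.47) are filled.

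Cdkn2a and Cdkn2b lie on rat chromosome 5 of the RefSeq assembly GRCr8, both on the minus strand, with 1 other protein-coding gene between them and with Mtap and Dmrta1 as the outer neighbours. The sequences before their RefSeq start sites are shown because both genes rose in the same tumours. The window of Cdkn2a, chr5:109107957-109108206, lies inside the longer annotated gene (109100763 to 109114448), upstream of an internal start. The window of Cdkn2b, chr5:109134907-109135105, ends at the gene's 5' end. Capitals mark TGACGTCA, the palindrome that CREB and ATF factors bind, which was found once in the Cdkn2b window, 96 bases before the start site, and not in that of Cdkn2a.
Cdkn2a: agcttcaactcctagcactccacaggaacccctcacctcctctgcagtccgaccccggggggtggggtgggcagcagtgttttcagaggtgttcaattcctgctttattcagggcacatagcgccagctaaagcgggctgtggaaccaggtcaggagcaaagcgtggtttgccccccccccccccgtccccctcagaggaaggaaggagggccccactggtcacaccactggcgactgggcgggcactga
Cdkn2b: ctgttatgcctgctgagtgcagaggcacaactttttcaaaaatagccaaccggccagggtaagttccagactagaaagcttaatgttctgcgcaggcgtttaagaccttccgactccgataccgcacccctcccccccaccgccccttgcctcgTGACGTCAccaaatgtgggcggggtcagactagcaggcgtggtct
TGACGTCA (the same on both strands) is found in 1.59% of 33469 RefSeq promoter windows of 250 bases. GGGCGG, the core of the GC box, was found on either strand once in the Cdkn2a window and 2 times in the Cdkn2b window (3 times in the 250 bases before its start site, which run on into the gene), and in 30.5% of all windows of 250 bases. These matches describe the letters of the windows only.

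In carcinomas the level of Cdkn2a was 5.84, 4.55, 5.38 and 4.67, and in beta-catenin carcinomas it was 4.47, 4.64, 5.02 and 5.34. The 7 surrounding arrays read 3.95, 3.33, 4.06, 3.90, 3.47, 3.73 and 3.42. Every carcinoma of either kind was above every surrounding array. The change was 1.59 ± 0.26 (SE, 3.02-fold, adjusted p = 0.000799, limma with Benjamini-Hochberg adjustment over all probe sets) in carcinomas and 1.31 ± 0.25 (2.48-fold, adjusted p = 0.00133) in beta-catenin carcinomas. The 2 kinds of carcinoma, set against each other, differed by -0.29 ± 0.28 (beta-catenin minus other, adjusted p = 1). The gene is dim on these arrays, at the 28.9th percentile of probe sets in frozen tissue. The probe set carries no label for p16 or ARF, so the 2 transcripts cannot be told apart.

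Cdkn2b, the neighbouring inhibitor, read 5.85, 5.81, 5.92 and 5.81 in carcinomas and 5.57, 5.80, 5.90 and 5.90 in beta-catenin carcinomas. The surrounding arrays read 5.42, 5.17, 5.40, 5.33, 5.47, 5.09 and 5.13. The carcinomas lay in a band narrower than the surrounding liver and, as for Cdkn2a, did not overlap it. The change was smaller than that of Cdkn2a, 0.51 ± 0.12 (1.42-fold, adjusted p = 0.00933) in carcinomas and 0.47 ± 0.11 (1.39-fold, adjusted p = 0.00666) in beta-catenin carcinomas. Leaving out carcinoma replicate 1 or 4 kept the size in carcinomas (0.49 and 0.50) but not the call (adjusted p = 0.0656 and 0.0582). In a fit of the compared groups alone, the change in beta-catenin carcinomas was 0.53 (adjusted p = 0.053).

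Hence 2 of 7 member genes were called in each carcinoma comparison, both as higher, where 10% and 15.4% of all 14217 genes were called (3.95% and 6.85% as higher). The same 2 did not overlap the surrounding liver from above, as did 5.61% and 4.11% of all genes. The median change of the 7 genes was -0.02 in carcinomas and 0.23 in beta-catenin carcinomas, against -0.02 and -0.01 over all genes. Within each of the 3 animals with both tissues, Cdkn2a was higher in carcinomas than in that animal's surrounding liver by 1.09 to 2.20, and in beta-catenin carcinomas by 0.83 to 1.60. Cdkn2b was higher in the same 3 animals by 0.39 to 0.70 and by 0.27 to 0.79.

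The labels pair each frozen lesion with a control set of surrounding liver. All carcinomas of either kind belong to 3 sets (1 surrounding array each), and all nodules and adenomas belong to 4 others. In a fit called matched here, whose block is the control set and not the animal, the changes of Cdkn2a were 1.74 and 1.45 (adjusted p = 0.00357 and 0.00578) and those of Cdkn2b 0.57 and 0.53 (adjusted p = 0.0126 and 0.0127), in fits that called 5.21% and 8.47% of all genes. Both calls therefore stood against surrounding liver of the same sets. Cdkn2a in surrounding liver read 3.33 to 3.47 in the sets of the carcinomas and 3.73 to 4.06 in the others. That difference between surrounding arrays was -0.33 ± 0.32 and did not pass (limma, adjusted p = 0.608).

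Proliferation genes, macrophage markers and the INK4 genes moved in the same carcinomas. The mean level of 14 proliferation genes was 4.91 to 5.81 in surrounding liver, 5.82 to 7.15 in carcinomas and 5.94 to 6.88 in beta-catenin carcinomas. That of 9 macrophage markers was 8.96 to 9.50 in surrounding liver, 8.15 to 8.91 in carcinomas and 7.80 to 8.75 in beta-catenin carcinomas. Of the 9, 3 and 4 fell, where 10% and 15.4% of all genes were called. In the matched fit 4 and 6 fell, where 5.21% and 8.47% were called. In adenomas, where neither INK4 gene was called, the proliferation genes read 6.17 to 6.83. There 3 of the 9 macrophage markers fell, where 22.7% of all genes were called. In bulk tissue, fewer cells of a type and less RNA per cell cannot be told apart, and the part of cell mixture in the rise of Cdkn2a and Cdkn2b was not tested.

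**Figure D2:**
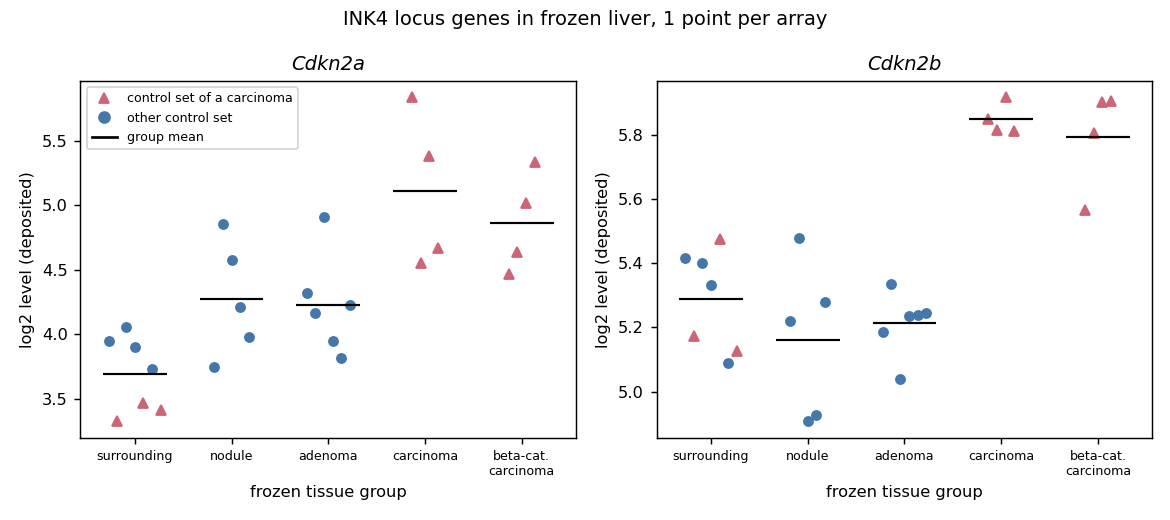
Deposited log2 levels of Cdkn2a (left) and Cdkn2b (right) in the 5 frozen groups, 1 point per array, triangles for the control sets of the carcinomas, circles for the other sets and a line at the group mean. All 8 carcinoma points lie above all surrounding points for both genes. For Cdkn2b the adenomas and nodules overlap surrounding liver, with nodules at 4.91 and 4.93 and the lowest adenoma at 5.04 below all surrounding points.

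In nodules and adenomas neither INK4 gene was called. Cdkn2a had a lowest, median and highest level of 3.82, 4.20 and 4.91 in the 6 adenomas, and its 5 nodules read 3.75, 4.86, 4.58, 4.22 and 3.98. Both groups reached above the highest surrounding array and overlapped the rest. The changes of 0.53 ± 0.24 in adenomas (adjusted p = 0.137) and 0.40 ± 0.24 in nodules (adjusted p = 0.575) did not pass. For Cdkn2b the changes were near 0, with -0.08 ± 0.11 in adenomas (5.04, 5.24 and 5.33 as lowest, median and highest) and -0.07 ± 0.11 in nodules (5.22, 5.48, 4.91, 4.93 and 5.28).

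Among frozen nodules limma called 0 of 7 member genes (0 also without adjustment, at p under 0.05), where 0.0352% of all genes were called. In adenomas 0 passed (1 at an unadjusted p under 0.05, Cdkn2a), where 22.7% of all genes were called. Adenomas set against nodules gave 0 (0 unadjusted), as for all genes (0%). Beta-catenin carcinomas set against the other carcinomas gave 0 (0 unadjusted), again as for all genes (0%).

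Carcinomas set against adenomas gave 1 call among the 7 genes, where 3.36% of all genes were called (1.32% as higher). Cdkn2b differed by 0.59 ± 0.13 (adjusted p = 0.028), with all 4 carcinomas above all 6 adenomas, as for 5.06% of all genes. Cdkn2a differed by 1.07 ± 0.30 (adjusted p = 0.0512), and carcinomas at 4.55 and 4.67 lay below the highest adenoma at 4.91. No control set holds both kinds of lesion, so stage and control set cannot be told apart here. In the matched fit, which compares them through their own surrounding liver, the difference was 0.64 for Cdkn2b and 1.24 for Cdkn2a (adjusted p = 0.912 for both), and 0% of all genes passed (5.16% of probe sets at an unadjusted p under 0.05). The call of Cdkn2b was lost without carcinoma 1 or 4, nodule 5 or adenoma 6 (adjusted p = 0.13, 0.137, 0.0537 and 0.0738), with sizes of 0.57 to 0.60. Cdkn2a passed without nodule 2, surrounding array 2, beta-catenin carcinoma 1, adenoma 3 or carcinoma 2 (adjusted p = 0.0401, 0.0451, 0.0407, 0.0354 and 0.0393).

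Across the 26 grouped frozen arrays the correlation of Cdkn2a with Cdkn2b was 0.628, a description in which arrays share animals, control sets and groups. Over the same arrays the genes with the pattern most like Cdkn2a were Ddb1, a subunit of a ubiquitin ligase and DNA repair complex (r = 0.783), Scmh1, a Polycomb group protein (r = 0.774), and the dipeptidyl peptidase Dpp7 (r = 0.763). Those most like Cdkn2b were Hs1bp3 (r = 0.855), Eri3 (r = 0.832) and Smarcc1, a subunit of the SWI/SNF chromatin remodelling complex (r = 0.828). These genes were picked by correlation over the same arrays, so a similar order of group means was built in. In surrounding liver, adenomas, carcinomas and beta-catenin carcinomas the mean level of Cdkn2b was 5.29, 5.21, 5.85 and 5.79. Hs1bp3 (7.38, 7.22, 7.77 and 7.72) and Eri3 (7.88, 7.78, 8.46 and 8.43) had the same order. Smarcc1 (6.95, 6.92, 7.71 and 7.77) had it except within the carcinomas.

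Of 11 measured regulators of the p16 and ARF locus, 1 rose and 1 fell in adenomas, where 22.7% of all genes were called. In each kind of carcinoma 1 fell, where 10% and, with the beta-catenin label, 15.4% of all genes were called. Ezh2, the Polycomb histone methyltransferase, rose in adenomas by 1.16 ± 0.18 (adjusted p = 0.000164), and the repressor Tbx3, a Wnt target, fell by 1.85 ± 0.53 (adjusted p = 0.0184). Eed, the partner of Ezh2, fell by 0.36 ± 0.11 in carcinomas (adjusted p = 0.0407) and by 0.32 ± 0.10 in beta-catenin carcinomas (adjusted p = 0.0457). In the matched fit Ezh2 kept its call (adjusted p = 0.00112), and Tbx3 (-1.66, adjusted p = 0.114) and Eed (-0.22 and -0.16, adjusted p = 0.291 and 0.446) did not.

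Of the 8 other CDK inhibitors and members of the retinoblastoma family, 2 rose and 2 fell in carcinomas, and 3 rose and 2 fell in beta-catenin carcinomas and in adenomas, where 10%, 15.4% and 22.7% of all genes were called. Cdkn2c (p18), an INK4 gene outside the locus, rose by 0.68 ± 0.21, 0.90 ± 0.23 and 1.08 ± 0.22 in adenomas, carcinomas and beta-catenin carcinomas (adjusted p = 0.029, 0.0178 and 0.00222). Cdkn1c (p57), the third CIP/KIP inhibitor beside p21 and p27, fell by 0.77 ± 0.20, 1.13 ± 0.21 and 0.95 ± 0.20 (adjusted p = 0.0093, 0.00215 and 0.00334). Rbl2 (p130), which represses cell cycle genes in resting cells, fell by 0.86 ± 0.12 and 0.91 ± 0.12 in the 2 kinds of carcinoma (adjusted p = 0.000282 and 3.61e-05). Of these, the matched fit ended only the call of Cdkn2c in carcinomas (0.89, adjusted p = 0.0505).

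Cyclin D1 and Cdk4, a kinase that INK4 proteins block, rose in the same tumours. Of 12 G1 cyclins, CDKs and E2F factors, 7 rose and 1 fell in adenomas, 2 rose in carcinomas and 3 in beta-catenin carcinomas, where 22.7%, 10% and 15.4% of all genes were called. Ccnd1, cyclin D1, rose by 1.76 ± 0.27, 2.47 ± 0.29 and 2.43 ± 0.28 (adjusted p = 0.000147, 0.000124 and 1.22e-05). Its kinase Cdk4 rose by 0.82 ± 0.17 in carcinomas and by 1.14 ± 0.17 in beta-catenin carcinomas (adjusted p = 0.00526 and 0.000108). In the matched fit Cdk4 was smaller but kept its calls (0.49 and 0.75, adjusted p = 0.0113 and 0.000449). Ccnd1 was 1.99, 2.08 and 2.01 there (adjusted p = 0.000408, 0.00161 and 0.000449). Proliferation genes rose in 14 of 14 members in adenomas, 6 in carcinomas and 12 in beta-catenin carcinomas (against the same shares of all genes), among them Mki67 by 2.56 ± 0.24, 1.51 ± 0.26 and 2.04 ± 0.25. The matched fit called 12 of the 14 as higher in adenomas. It called 6 in carcinomas and 9 in beta-catenin carcinomas, where 5.21% and 8.47% of all genes were called.

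Among the p53 targets, Mdm2 gave a result that depended on the probe set. Its main probe set in frozen tissue, 1383288_at, read 9.29, 9.47, 9.58 and 8.79 in beta-catenin carcinomas against a lowest, median and highest level of 8.28, 8.89 and 9.27 in surrounding liver. Of the beta-catenin carcinomas, 3 were above all surrounding arrays and 1 was not. The change was 0.43 ± 0.18 (adjusted p = 0.121), and it passed without beta-catenin carcinoma replicate 4 (0.63, adjusted p = 0.0214). In the other frozen lesions it lay between 0.09 and 0.26 (adjusted p = 0.33 to 0.895).

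The second probe set of Mdm2, 1383485_at, differed by 1.13 ± 0.27 (adjusted p = 0.00723) in beta-catenin carcinomas, and the other one, 1384427_at, by 0.70 ± 0.18 (adjusted p = 0.0125), where 12.5% of all probe sets were called. The first of these followed the control sets. In surrounding liver it read 7.16, 7.59 and 7.43 in the sets of the carcinomas and 5.82, 5.72, 5.92 and 6.05 in the other sets, with no overlap. This difference between surrounding arrays was 1.27 ± 0.21 (adjusted p = 0.000436), and 7.91% of all probe sets differed in that comparison. Lesions of the carcinoma sets lay between 7.30 and 8.17 and those of the other sets between 5.19 and 6.65.

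In the matched fit both calls were lost (0.50, adjusted p = 0.156, for 1383485_at and 0.53, adjusted p = 0.146, for 1384427_at). The main probe set was 0.58 there (adjusted p = 0.119). All 3 probe sets thus had changes of 0.50 to 0.58 in the matched fit, none of which passed. Against adenomas, 1383485_at was higher in carcinomas by 1.25 ± 0.32 (adjusted p = 0.0377, where 3.67% of all probe sets were called) and by 0.18 in the matched fit (adjusted p = 0.955). Without beta-catenin carcinoma replicate 1 or 3 the call of 1384427_at against surrounding liver was lost too (adjusted p = 0.0681 and 0.0655).

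**Figure D3:**
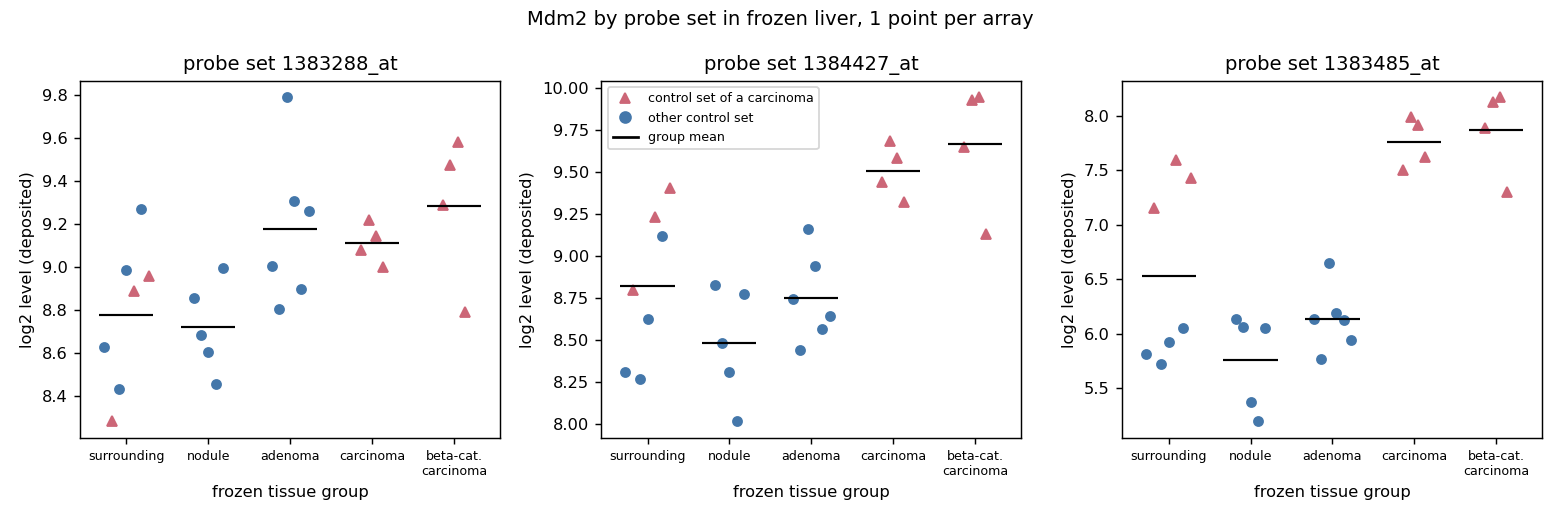
Deposited log2 levels of the 3 probe sets of Mdm2 in the 5 frozen groups, 1 point per array, triangles for the control sets of the carcinomas, circles for the other sets and a line at the group mean. On 1383485_at (right) the 3 surrounding arrays of the carcinoma sets, at 7.16 to 7.59, sit apart from the other 4, at 5.72 to 6.05.

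In FFPE tissue Mdm2 came nearest to the threshold among the members. Its main probe set there, 1384427_at, had a lowest, median and highest level of 8.23, 8.61 and 8.85 in the 9 foci, and the 4 surrounding samples read 7.76, 9.03, 7.50 and 8.43. Surrounding liver spread on both sides of the foci. Within each of the 3 animals with both, foci were higher by 0.20 to 1.19. The change was 0.71 ± 0.20 (1.64-fold, adjusted p = 0.0607). It passed when genes were tested by 1 probe set each (adjusted p = 0.0381), with a filter on dim probe sets (adjusted p = 0.0382) and without foci replicate 9 (0.79, adjusted p = 0.0286). FFPE adenomas read 8.27, 8.50, 9.37, 9.52 and 8.71, and their change was 0.55 ± 0.22 (adjusted p = 0.347). The other probe sets of Mdm2 did not pass in foci. Their changes were 0.50 ± 0.21 for 1383288_at (adjusted p = 0.305) and 0.35 ± 0.24 for 1383485_at (adjusted p = 0.656). Foci were higher in 3 of 3 animals on 1383288_at and in 2 of 3 on 1383485_at.

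Mdm4, the relative of Mdm2 that inhibits p53 without degrading it, was not called in any comparison, with changes from -0.33 ± 0.13 in frozen adenomas (adjusted p = 0.079) to 0.22 ± 0.13 in beta-catenin carcinomas (adjusted p = 0.32) among the lesions set against surrounding liver. Of 12 measured p53 regulators, 2 rose and 1 fell in adenomas, 1 rose in carcinomas, and 1 rose and 1 fell in beta-catenin carcinomas, where 22.7%, 10% and 15.4% of all genes were called. Chek1, the checkpoint kinase, rose in carcinomas by 1.19 ± 0.31 (adjusted p = 0.02) and in beta-catenin carcinomas by 1.27 ± 0.30 (adjusted p = 0.0065). Usp7, which deubiquitinates p53 and Mdm2, fell in beta-catenin carcinomas by 0.44 ± 0.13 (adjusted p = 0.0243). Chek1 was 1.04 and 1.07 in the matched fit (adjusted p = 0.11 and 0.0786) and Usp7 -0.25 (adjusted p = 0.301), and none of these passed.

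Cdkn1a and Ccng1, the p53 targets for p21 and cyclin G1, are shown with the sequence before their start sites. Each holds 1 exact match to the 10-base p53 half-site consensus, in capitals, which alone is not a full p53 site. Inexact matches were not searched for. In Cdkn1a the 10 bases right after the match differ from the consensus at the first base only. The window of Cdkn1a, chr20:7150682-7150819 (GRCr8, plus strand), ends at the gene's 5' end, which lies 112 bases before the start site. Its match lies 201 bases before that start site. The window of Ccng1 is chr10:25684877-25685126 (minus strand) with a match 232 bases before the start site.
Cdkn1a: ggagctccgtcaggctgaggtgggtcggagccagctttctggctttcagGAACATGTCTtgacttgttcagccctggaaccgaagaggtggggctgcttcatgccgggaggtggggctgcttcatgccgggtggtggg
Ccng1: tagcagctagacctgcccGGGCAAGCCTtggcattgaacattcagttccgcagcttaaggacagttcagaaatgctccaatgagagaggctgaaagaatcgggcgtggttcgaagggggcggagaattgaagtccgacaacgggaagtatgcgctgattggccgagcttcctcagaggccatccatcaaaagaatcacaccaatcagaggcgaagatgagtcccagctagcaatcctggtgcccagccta
A match to this half-site consensus, on either strand, is found in 6.64% of the 33469 windows of 250 bases. None was found in the 250 bases before the start sites of Mdm2, Cdkn2a, Cdkn2b, Gdf15 and Cdkn1b. Presence or absence of a match describes the letters of the windows only.

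Cdkn1a passed in no comparison, and its surrounding liver spread more than its lesions. The main probe set, 1388674_at, read 9.0 and 8.69 in the 2 surrounding arrays of animal 23 and 7.01, 6.50, 7.08, 7.79 and 7.52 in the other 5. In animal 23 all 6 lesions were lower, from 6.97 to 8.39. In animal 10 the 2 carcinomas, at 7.69 and 7.79, were above both surrounding arrays and the 2 nodules, at 6.33 and 6.22, below them. Directions therefore differed between animals, and the changes were -0.54 ± 0.36 in adenomas, -0.52 ± 0.36 in nodules, -0.18 ± 0.39 in carcinomas and 0.23 ± 0.37 in beta-catenin carcinomas (adjusted p = 0.329 to 0.844). The second probe set, 1387391_at, ran with the first (r = 0.83 over 26 arrays that share animals) and was not called either.

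In FFPE tissue Cdkn1a had a lowest, median and highest level of 5.72, 6.24 and 7.46 in foci against 6.69, 8.60, 6.70 and 7.74 in the 4 surrounding samples. Most foci were below all surrounding samples, and the mean of foci was lower in 3 of 3 animals, with differences from -0.04 in animal 18 to -1.28 in animal 7. The change of -0.83 ± 0.31 did not pass (adjusted p = 0.222), and on the second probe set it was -0.06 ± 0.39. FFPE adenomas read 6.55, 7.53, 7.59, 7.64 and 6.80, with a change of -0.29 ± 0.34 (adjusted p = 0.878).

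**Figure D4:**
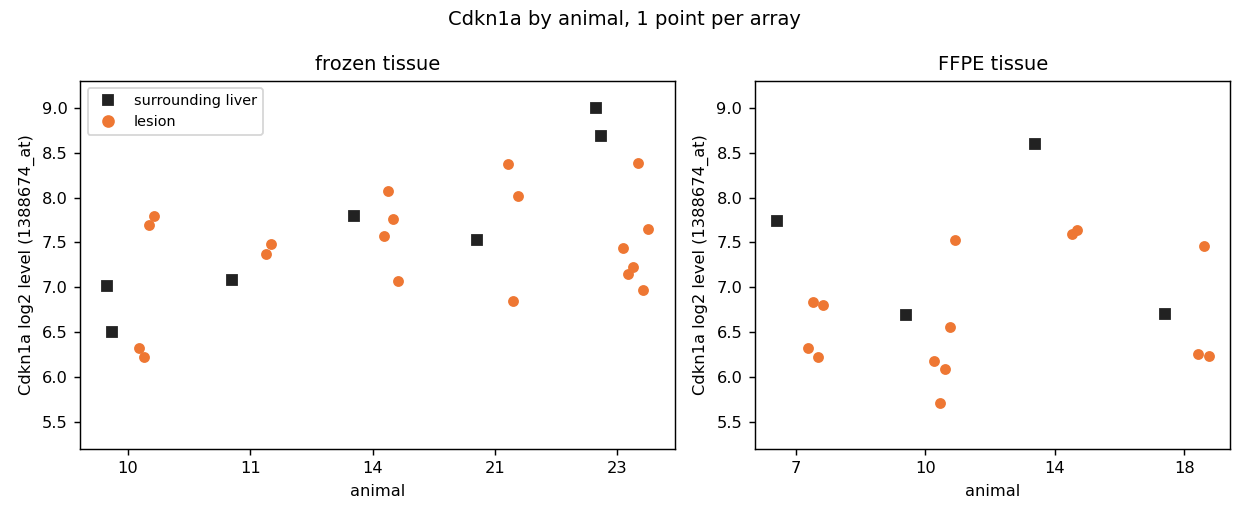
Deposited log2 level of Cdkn1a (1388674_at) by animal in frozen (left) and FFPE tissue (right), squares for surrounding liver and circles for lesions. The 2 squares of animal 23, at 9.0 and 8.69, and the square of animal 14 in FFPE tissue, at 8.60, are the highest points of their panels.

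Ccng1, whose product recruits a phosphatase to Mdm2, was likewise highest in the surrounding liver of animal 23. Frozen surrounding liver read 9.57 and 9.27 in animal 23 and 8.57, 8.54, 8.65, 9.13 and 9.10 in the other arrays. Adenomas had a lowest, median and highest level of 9.07, 9.33 and 9.52 and lay in the upper part of that range. Carcinomas read 8.88, 8.93, 8.63 and 8.68, all below all adenomas, as for 7.6% of all genes, with a difference of -0.44 ± 0.24 (adjusted p = 0.309). Against surrounding liver the changes were 0.24 ± 0.19 in adenomas, 0.03 ± 0.19 in nodules, -0.20 ± 0.21 in carcinomas and -0.34 ± 0.20 in beta-catenin carcinomas (adjusted p = 0.307 to 0.981). Without beta-catenin carcinoma replicate 1, whose source name lacks the mutation, the last of these was -0.68 and passed (adjusted p = 0.0163). In FFPE tissue its changes were 0.05 ± 0.26 in foci and 0.30 ± 0.29 in adenomas (adjusted p = 0.973 and 0.827).

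Gdf15, a secreted stress cytokine that p53 and the integrated stress response both induce, was not called. Adenomas read 5.68, 5.52, 5.74, 6.70, 5.28 and 6.14 against a lowest, median and highest level of 5.02, 5.32 and 6.19 in surrounding liver, and 1 adenoma exceeded that range. Its change in adenomas was 0.52 ± 0.28 (adjusted p = 0.221). Single lesions stood out in other groups, with 6.93 in beta-catenin carcinoma replicate 2 against 4.92 to 5.29 in the other 3. In foci its change was -0.25 ± 0.32 (adjusted p = 0.848).

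The FFPE surrounding sample of animal 14 was the highest of 4 for all 4 p53 targets. It read 9.03 for Mdm2, 8.60 for Cdkn1a, 8.17 for Ccng1 and 7.02 for Gdf15, where the next highest sample read 8.43, 7.74, 6.89 and 6.71. Cdkn1b, not one of these targets, was highest in that sample too, at 8.17 against 7.75 in the next on 1373812_at. The share of all genes for which this sample was highest was not counted. Its Cdkn2a level, 4.00, and its Cdkn2b level, 6.28, were the lowest of the 4. The 2 FFPE adenomas of that animal had the lowest Cdkn2a levels of their group as well, 3.70 and 3.61, against 5.55, 5.99 and 5.30 in the other adenomas.

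Counts in FFPE tissue were 0 of 7 genes in foci (2 at an unadjusted p under 0.05, Mdm2 and Cdkn1a), where limma called 2.64% of all genes. In adenomas 0 of 7 passed (1 unadjusted, Mdm2), where 1.84% of all genes were called, and in adenomas set against foci 0 (0 unadjusted), where 0% were called. The difference between the frozen and the FFPE adenoma effect was called for 0 of 7 genes (0 unadjusted) and for 0.295% of all genes. Among main frozen probe sets its largest value was for Cdkn2a (0.76 ± 0.47, frozen minus FFPE, adjusted p = 0.487), and for Mdm2 on 1384427_at it was -0.92 ± 0.29 (adjusted p = 0.133). Cdkn2a and Cdkn2b themselves changed by -0.02 ± 0.31 and 0.16 ± 0.25 in foci and by 0.17 ± 0.35 and 0.08 ± 0.27 in FFPE adenomas.

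**Figure D5:**
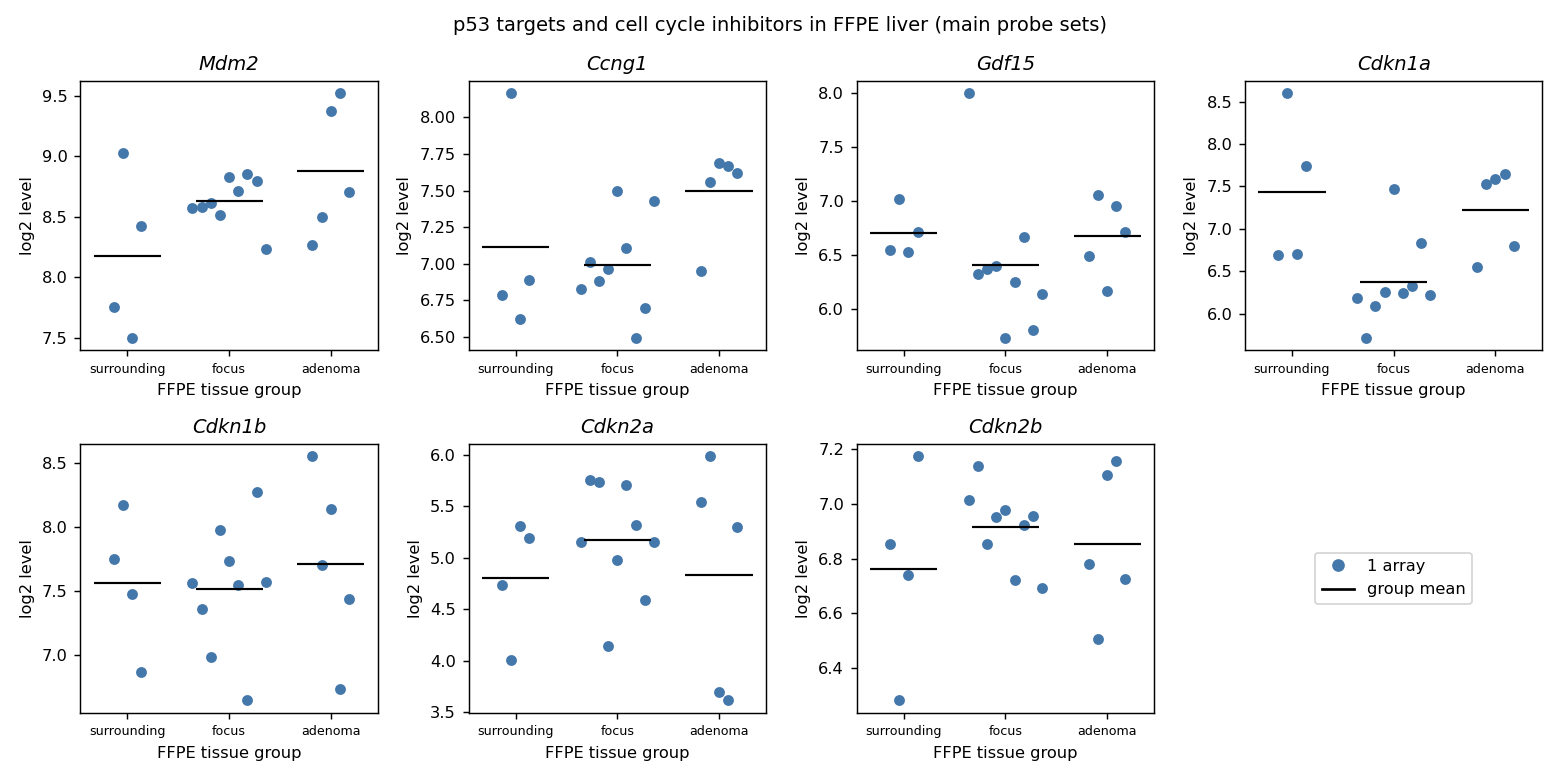
Deposited log2 levels of the 7 member genes (main probe sets) in FFPE surrounding liver, foci and adenomas, 1 point per array with a line at the group mean. Foci lie at 8.23 to 8.85 for Mdm2 and, but for 1 point at 7.46, at 5.72 to 6.84 for Cdkn1a, and every gene overlaps between groups.

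Of 31 other measured p53 targets, 4 rose and 5 fell in frozen adenomas, 2 rose and 1 fell in carcinomas and in beta-catenin carcinomas, and 0 passed in nodules, foci and FFPE adenomas. The share of all genes called was 22.7% in adenomas, 10% in carcinomas and 15.4% in beta-catenin carcinomas. In nodules, foci and FFPE adenomas it was 0.0352%, 2.64% and 1.84%. The median change of these 31 targets was 0.04, -0.01 and 0.04 in adenomas, carcinomas and beta-catenin carcinomas, against 0.02, -0.02 and -0.01 over all genes. Sfn, the 14-3-3 sigma protein that holds cells in G2, rose in adenomas by 1.88 ± 0.39 (adjusted p = 0.00226), and Gadd45a, a DNA damage-inducible inhibitor of Cdk1, by 0.64 ± 0.13 (adjusted p = 0.00155). Ddb2, a nucleotide excision repair protein, fell there by 0.62 ± 0.14 (adjusted p = 0.00505). Triap1, an inhibitor of apoptosis, fell by 0.49 ± 0.13 in carcinomas (adjusted p = 0.0205) and by 0.37 ± 0.12 in beta-catenin carcinomas (adjusted p = 0.0486). In the matched fit Sfn and Gadd45a kept their calls in adenomas (adjusted p = 0.0401 and 0.00902). Trim32 kept its calls in adenomas and carcinomas (adjusted p = 0.00448 and 0.027). Ddb2 (-0.42, adjusted p = 0.0953) and Triap1 (-0.33 and -0.20, adjusted p = 0.182 and 0.474) did not. Abhd4 (0.30 and 0.26, adjusted p = 0.244 and 0.318) and Gadd45a in beta-catenin carcinomas (0.41, adjusted p = 0.148) also lost their calls.

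Genes of the integrated stress response, which shares Gdf15 with p53, rose in 4 of 14 measured members in carcinomas and in 8 in beta-catenin carcinomas, and 4 rose and 3 fell in adenomas, where 10%, 15.4% and 22.7% of all genes were called. Asns, asparagine synthetase, rose by 2.13 ± 0.42, 2.54 ± 0.45 and 2.54 ± 0.44 in adenomas, carcinomas and beta-catenin carcinomas (adjusted p = 0.00148, 0.00148 and 0.000526). Gdf15 changed by 0.52 ± 0.28, -0.08 ± 0.30 and 0.03 ± 0.29 in the same comparisons.

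Cdkn1b, the inhibitor p27 that is largely controlled through protein turnover, was bright and even in frozen tissue on its main probe set. In FFPE tissue that probe set spread more, from 6.65 to 8.27 in foci and from 6.73 to 8.55 in adenomas. Its main probe set, 1373812_at, had a lowest, median and highest level of 9.27, 9.83 and 10.02 in frozen surrounding liver and 9.66, 9.97 and 10.07 in adenomas. Carcinomas read 9.43, 9.78, 9.71 and 9.89, and all groups overlapped. The changes in the 4 frozen lesion groups were -0.21 to 0.07 (adjusted p = 0.564 to 0.95), and in FFPE foci and adenomas -0.05 ± 0.32 and 0.17 ± 0.35.

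The dim probe set of Cdkn1b, 1369192_at, was lower in adenomas by 0.43 ± 0.12 (adjusted p = 0.0184, where 18.1% of all probe sets were called) and higher in carcinomas than in adenomas by 0.66 ± 0.15 (adjusted p = 0.0285). It did not run with the main probe set (r = -0.213 over 26 arrays). In surrounding liver it read 4.80, 4.91 and 5.19 in the sets of the carcinomas and 4.74, 4.37, 4.11 and 4.50 in the others, a difference of 0.42 ± 0.14 (adjusted p = 0.0669). In the matched fit both changes lost their call (-0.17, adjusted p = 0.329, and 0.21, adjusted p = 0.912). The first was also lost without surrounding array 7 (adjusted p = 0.0695) or adenoma 4 (adjusted p = 0.0548), and in a fit of the compared groups alone (adjusted p = 0.203). Among 5 genes of p27 turnover, Rbx1, a subunit of the SCF ubiquitin ligase, rose in adenomas by 0.31 ± 0.09 (adjusted p = 0.0159) and in beta-catenin carcinomas by 0.34 ± 0.09 (adjusted p = 0.0161), and 0 passed in carcinomas. Of all genes, 22.7%, 15.4% and 10% were called in adenomas, beta-catenin carcinomas and carcinomas. In the matched fit the change of Rbx1 was 0.29 in adenomas (adjusted p = 0.0868) and 0.37 in beta-catenin carcinomas (adjusted p = 0.0465).

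Of the 5 relatives of Btg2, antiproliferative adaptors of mRNA decay, Tob1 fell in adenomas by 0.51 ± 0.12 (adjusted p = 0.00608). Btg1 fell in FFPE foci by 0.60 ± 0.16 (adjusted p = 0.0382), in carcinomas by 0.63 ± 0.15 (adjusted p = 0.0133) and in beta-catenin carcinomas by 0.45 ± 0.15 (adjusted p = 0.0499). In each of these comparisons 1 of the 5 was called. Of all genes, 22.7%, 2.64%, 10% and 15.4% were called in adenomas, foci, carcinomas and beta-catenin carcinomas. The matched fit kept the call of Tob1 (adjusted p = 0.0265) and did not call Btg1, which was -0.63 and -0.44 there in the 2 kinds of carcinoma (adjusted p = 0.0615 and 0.181). That fit was made for frozen tissue alone.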

How the data were processed

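Values in the deposited table are log2 probe set summaries made by the authors, with no missing value. Background correction, normalization and summarization are not given in the sources used here. Per the labels' protocols, frozen RNA came from TRIzol and miRNeasy extraction and FFPE RNA from laser microdissection and the RNeasy FFPE kit. Frozen and FFPE arrays had separate fits in limma 3.58.1, run in R 4.3.3 (group and animal as fixed terms, intensity trend, 17 and 12 residual degrees of freedom in frozen and FFPE tissue), and p-values were adjusted by Benjamini-Hochberg over 31042 probe sets, with calls at 0.05. Errors are standard errors of the fit. The fit was tested on simulated data. Samples are paired by animal, which the titles give. As a check, residuals about group means correlated with a median r of 0.11 for arrays of 1 animal and -0.0174 for arrays of different animals in frozen tissue, and of 0.0916 and -0.0267 in FFPE tissue. The matched fit uses the labelled control set as block (15 residual degrees of freedom). Nothing in the labels says that samples of 1 animal are independent, so p-values measure the spread between these arrays.

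Shares of all genes use 1 probe set per gene (14217 genes from 20826 probe sets with 1 symbol). Symbols come from the platform annotation, and sequences and positions from RefSeq (GRCr8). Arrays give no counts, so their number limits the precision. The members and gene lists were chosen with earlier results of these data known. Genes beyond the members are named by rule: Mdm4, from each list and comparison up to 4 called genes with the largest absolute change (some are described), and for each called member the 3 genes with the highest correlation to it. A gene that the rule also names is not reported here. Alternatives were the animal left out or random, 1 probe set per gene, quantile normalization, a filter on group means below 5 (log2), no intensity trend, array weights, the control set as block, only the compared groups, the C43 arrays added to surrounding liver, and leaving out each array. Fits within 1 kind of control set, and the contrast between kinds, were added after seeing the data.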

Additional observations from a re-analysis of the deposited data

Results flagged for a closer look

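In 88 checks of a group and a probe set for 1 array far from the rest of its group, 3 arrays stood apart, and chance gives about 1 in 20. Gdf15 was highest in foci replicate 1 at 8.0 against 6.67 in the next of 9 foci. It was highest in nodule replicate 3 at 6.44 against 5.51 in the next of 5 nodules. Ccng1 was lowest in FFPE adenoma replicate 1 at 6.95 against 7.56 in the next of 5 adenomas. Without foci replicate 1 the change of Gdf15 in foci was -0.46 (adjusted p = 0.618, limma), and without nodule replicate 3 that in nodules was -0.04 (adjusted p = 0.979), against 0.12 with it. Without FFPE adenoma replicate 1 the change of Ccng1 in FFPE adenomas was 0.38 (adjusted p = 0.787).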

How the results depend on the processing

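The calls of Cdkn2a in both kinds of carcinoma against surrounding liver held under every alternative run, with 1.31 to 1.85 and 1.14 to 1.60 when arrays were left out in turn. The 10 changes called among all member probe sets gave 362 alternative values, of which 0 turned sign. The 72 changes not called gave 2231, of which 130 turned sign and 0 of these were called. The count of member genes called in carcinomas against adenomas, 1, became 2 with no replicate block, with animal as a random replicate block, with the filter on dim probe sets and with array weights (Cdkn2a 0.88, 0.90, 1.07 and 1.08), and 0 with the replicate block by control set and with only the compared groups (Cdkn2b 0.64 and 0.57). In foci it went from 0 to 1 with 1 probe set per gene and with the dim filter (Mdm2 0.71 in both), and in beta-catenin carcinomas from 2 to 1 with only the compared groups (Cdkn2b 0.53). Leaving out 1 array gave counts of 0 to 1 in foci, 1 to 2 in carcinomas, 2 to 3 in beta-catenin carcinomas and 0 to 2 in carcinomas against adenomas. The cause of these shifts was not tested.

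The values that turned sign were all of uncalled changes. With no replicate block they were Cdkn2a 0.36 and Ccng1 -0.13 in foci, Mdm2 0.24 and Cdkn2a -0.34 in FFPE adenomas against foci, Mdm2 -0.058 and Ccng1 -0.011 in nodules, Gdf15 0.20 in carcinomas. Under the same setting they were also Cdkn1a 0.50, Cdkn2a -0.044 and Cdkn2b 0.051 in adenomas against nodules, Cdkn1a -0.049 in carcinomas against adenomas, Gdf15 -0.092 between the 2 kinds of carcinoma, Cdkn1a 0.046 between the fixations. With animal as a random replicate block they were Cdkn2a 0.29 and Ccng1 -0.094 in foci, Mdm2 0.18 and Cdkn2a -0.26 in FFPE adenomas against foci, Mdm2 -0.038 and Ccng1 -0.0063 in nodules, Gdf15 0.16 in carcinomas. Under the same setting they were also Cdkn1a 0.39, Cdkn2a -0.018 and Cdkn2b 0.046 in adenomas against nodules, Gdf15 -0.055 between the 2 kinds of carcinoma. With quantile normalization they were Cdkn2a 0.0057 in foci, Cdkn1b 0.013 in carcinomas, Mdm2 0.053 in carcinomas against adenomas. With array weights they were Cdkn2a 0.11 and Ccng1 -0.0071 in foci, Mdm2 0.0065 in carcinomas against adenomas, Cdkn2b 0.012 between the 2 kinds of carcinoma. With the replicate block by control set they were Gdf15 -0.084 in beta-catenin carcinomas, Cdkn2b 0.10 and Ccng1 -0.12 in adenomas against nodules, Mdm2 0.27 in carcinomas against adenomas. With only the compared groups they were Cdkn1b 0.15, Cdkn2a 0.096 and Cdkn2b -0.0074 in foci, Cdkn1b -0.018 and Cdkn2b 0.025 in adenomas, Gdf15 0.029 in carcinomas, Cdkn1a 0.064 in adenomas against nodules. Under the same setting they were also Cdkn1a -0.13 and Cdkn1b 0.019 in carcinomas against adenomas. With only the carcinoma control sets they were Gdf15 -0.084 in beta-catenin carcinomas. With only the other control sets they were Cdkn2b 0.10 and Ccng1 -0.12 in adenomas against nodules.

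Leaving out 1 array at a time gave ranges that crossed 0 for uncalled changes. In foci these were Ccng1 -0.17 to 0.22, Cdkn1b -0.28 to 0.15, Cdkn2a -0.34 to 0.12 and Cdkn2b -0.0074 to 0.35. In FFPE adenomas these were Cdkn1a -0.55 to 0.046, Cdkn1b -0.076 to 0.60, Cdkn2a -0.15 to 0.43 and Cdkn2b -0.29 to 0.24. In FFPE adenomas against foci these were Cdkn1b -0.081 to 0.45, Cdkn2b -0.28 to 0.043 and Gdf15 -0.065 to 0.38. In nodules these were Ccng1 -0.12 to 0.11, Cdkn2b -0.16 to 0.08 and Gdf15 -0.043 to 0.21. In carcinomas these were Cdkn1a -0.64 to 0.13, Cdkn1b -0.077 to 0.024 and Gdf15 -0.42 to 0.14. In beta-catenin carcinomas these were Cdkn1a -0.0019 to 0.61 and Gdf15 -0.27 to 0.21. In adenomas against nodules these were Cdkn1a -0.16 to 0.21, Cdkn2a -0.085 to 0.35 and Cdkn2b -0.12 to 0.064. In carcinomas against adenomas these were Cdkn1a -0.052 to 0.74 and Mdm2 -0.0995 to 0.088. Between the 2 kinds of carcinoma these were Ccng1 -0.44 to 0.043, Cdkn1b -0.26 to 0.0016, Cdkn2b -0.075 to 0.064 and Gdf15 -0.31 to 0.41.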
